A study of Mus musculus with 8 samples.

Results

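The genes Prg4, Cilp, Cilp2, Cytl1, Abi3bp, Clu, Mgp, Ucma, Cnmd and C1qtnf3, listed as genes of articular and surface cartilage, were followed through single cells of the adult mouse tibia. The list was given by name and makes up 10 of the 31053 genes counted. All 10 were in the data, and all 10 were detected. Cells were assigned to gates by raw counts of unique molecular identifiers (UMIs, one per captured transcript molecule), and no listed gene took part in a gate.

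Cells came from tibiae at postnatal day 56 (8 weeks) and were pooled from 3 mice, with 8 labelled samples of 1 group. Every animal carried MMP14 F/+, the driver COL10A1cre, the reporter R26-tdT and the transgene Col1a1-2.3-GFP, and received no treatment. These inherited alleles were common to all animals. The Cre can also delete the floxed Mmp14 copy in the cells where it acts and in their descendants, and how far it did so was not measured. Col10a1 drives the Cre, which turns on the tdTomato reporter in hypertrophic chondrocytes and leaves it on in their descendants, whereas the Col1a1 promoter fragment marks osteoblasts with GFP. The barcodes carried no mark of sample or mouse, so the data were 1 sample without replicates, no test was possible, and all intervals below are 95% intervals for counting error only.

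Articular cartilage lines the joint, and its surface cells secrete lubricin, the product of Prg4, which lets the surfaces slide. Growth plate cartilage lies deeper in the bone, where columns of chondrocytes divide, enlarge into hypertrophic cells that make Col10a1 and the signal Ihh, and give way to bone. Cilp and Cilp2 encode matrix proteins of the intermediate layer of cartilage, Cytl1 a small secreted protein of chondrocytes, Abi3bp an extracellular matrix protein and Clu the secreted chaperone clusterin. Mgp and Ucma encode vitamin K-dependent Gla proteins, of which Mgp inhibits calcification. Cnmd encodes chondromodulin, an inhibitor of blood vessel growth in cartilage, and C1qtnf3 a secreted protein of the C1q and TNF related family.

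Of 12564 barcodes, 4472 held at least 1600 genes and were kept, with a median of 10451.5 UMIs. No barcode was repeated. The Col2a1 gate (Col2a1 at 10 UMIs or more, with Col10a1 and Ihh together under 5) took 280 cells at a median depth of 16427.5 UMIs. The Col10a1/Ihh gate (Col10a1 and Ihh together at 5 or more) took 79 cells at 24233 UMIs, and both gates together are called chondrocytes here for short, 359 cells, although 13 of the 79 held under 10 Col2a1 UMIs. The name stands for the gates and not for an identity shown in every cell. The Bglap gate of bone cells (20 UMIs or more) took 54 cells, the Cxcl12 gate of marrow stroma (Cxcl12 at 20 or more with Lepr and Adipoq together at 2 or more) took 23, the Dcn/Col3a1 gate of fibroblasts and related cells (both at 3 or more) took 164 at 10243.5 UMIs, and the Ptprc gate of blood cells (1 or more) took 3286. Gates overlapped: 43 cells of the Col2a1 gate also passed the Dcn/Col3a1 gate, 50 the Ptprc gate and 16 the Bglap gate. Of 9 chondrocyte marker genes other than Col2a1, 8 were at least 2-fold above the mean of all kept cells in the Col2a1 gate, and all 10 with Col2a1 were so in the Col10a1/Ihh gate. The 6 hypertrophic markers other than Col10a1 and Ihh were also so in the Col10a1/Ihh gate. In the Col2a1 gate 8 of 8 osteoblast and 6 of 10 fibroblast or tendon markers passed the same limit. So did 4 of the 6 hypertrophic markers. In the Col10a1/Ihh gate 4 of 8 osteoblast and 5 of 10 fibroblast or tendon markers did. In both gates 0 of 10 blood markers did. The mean was taken mostly over Ptprc-gate cells, so this limit does not set chondrocytes apart from other skeletal cells. The 3203 cells that passed the Ptprc gate alone, at a median of 9823 UMIs, serve as background for shares of cells.

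In mm10 the protein-coding gene Prg4 spans chr1:150449412-150466165 on the minus strand, Cilp chr9:65265180-65280605 on the plus strand, Cytl1 chr5:37735519-37739820 on the plus strand, Ucma chr2:4976122-4985748 on the plus strand, Cnmd chr14:79637690-79662170 on the minus strand and C1qtnf3 chr15:10952332-10980150 on the plus strand. RefSeq promoter windows on GRCm38.p6, 250 bases before to 50 after the annotated start, were at hand for 6 of the 10 genes. Shown here are 2 genes that went with Prg4 in single chondrocytes (Cilp and Cytl1) and 2 that were nearly confined to chondrocytes (Ucma and C1qtnf3). Capitals mark TATAA on the plus strand and TGTGGT, the core bound by RUNX factors, or its reverse complement ACCACA. The windows are chr9:65264930-65265229 for Cilp, chr5:37735269-37735568 for Cytl1, chr2:4975872-4976171 for Ucma and chr15:10952082-10952381 for C1qtnf3, all on the plus strand.
Cilp: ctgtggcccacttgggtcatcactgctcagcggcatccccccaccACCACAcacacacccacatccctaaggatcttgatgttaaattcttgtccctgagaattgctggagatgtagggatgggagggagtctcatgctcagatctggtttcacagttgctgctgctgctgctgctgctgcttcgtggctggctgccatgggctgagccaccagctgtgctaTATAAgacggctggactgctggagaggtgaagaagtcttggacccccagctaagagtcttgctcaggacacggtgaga
Cytl1: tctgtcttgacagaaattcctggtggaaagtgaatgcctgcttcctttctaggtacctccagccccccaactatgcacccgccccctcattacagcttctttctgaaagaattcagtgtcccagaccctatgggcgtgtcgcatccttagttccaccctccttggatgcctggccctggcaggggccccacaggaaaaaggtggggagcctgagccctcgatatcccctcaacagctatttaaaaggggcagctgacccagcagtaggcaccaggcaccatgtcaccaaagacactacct
Ucma: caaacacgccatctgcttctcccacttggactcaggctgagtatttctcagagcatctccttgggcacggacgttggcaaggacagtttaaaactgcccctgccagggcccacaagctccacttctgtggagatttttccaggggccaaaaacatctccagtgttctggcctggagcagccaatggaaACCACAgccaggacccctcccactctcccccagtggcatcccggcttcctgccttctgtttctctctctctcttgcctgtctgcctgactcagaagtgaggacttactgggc
C1qtnf3: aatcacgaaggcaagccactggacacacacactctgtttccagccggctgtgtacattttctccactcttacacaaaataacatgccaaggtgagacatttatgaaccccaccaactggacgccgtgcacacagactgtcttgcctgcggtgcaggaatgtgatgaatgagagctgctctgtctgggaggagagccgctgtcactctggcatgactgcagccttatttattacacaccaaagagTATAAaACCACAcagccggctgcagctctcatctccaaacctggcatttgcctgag
The RUNX core stood in the Cilp, Ucma and C1qtnf3 windows but not in those of Cilp2, Cytl1 and Cnmd. It was in 16.8% of 32851 mouse promoter windows of the same length. TATAA was found in the Cilp and C1qtnf3 windows and in 17.5% of all windows. In C1qtnf3, 1 base separated the TATAA from an ACCACA. The SOX core ACAAT, searched on both strands, was in 31.0% of windows and, among the 6 genes, in that of Cilp2. These matches describe letters, not binding.

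All 10 genes were at least 2-fold higher in the Col2a1 gate than in the Ptprc gate, which 21.5% of 12398 genes tested also were. Most transcripts of the list came from the 359 cells of the chondrocyte gates, but the genes differed in how nearly all of them did. The chondrocyte gates held 99.1% of all Cnmd UMIs in kept cells, 98.6% of C1qtnf3 and 97.5% of Ucma. For Cytl1 the share was 87.0%, for Mgp 82.8%, for Cilp 74.4%, for Prg4 71.9%, for Cilp2 69.8% and for Clu 65.5%. Of the 77740 Prg4 UMIs in kept cells, 32637 lay in 34 Col10a1/Ihh-gate cells, 12 of which held under 10 Col2a1 UMIs. Abi3bp stood lowest at 47.3%, with a further 44.4% of its UMIs in Dcn/Col3a1 cells outside the chondrocyte gates. The 47 cells that passed both a chondrocyte gate and the Dcn/Col3a1 gate count with the chondrocytes in these shares. The whole Dcn/Col3a1 gate held 2058 of the 3221 Abi3bp UMIs.

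**Figure D1:**
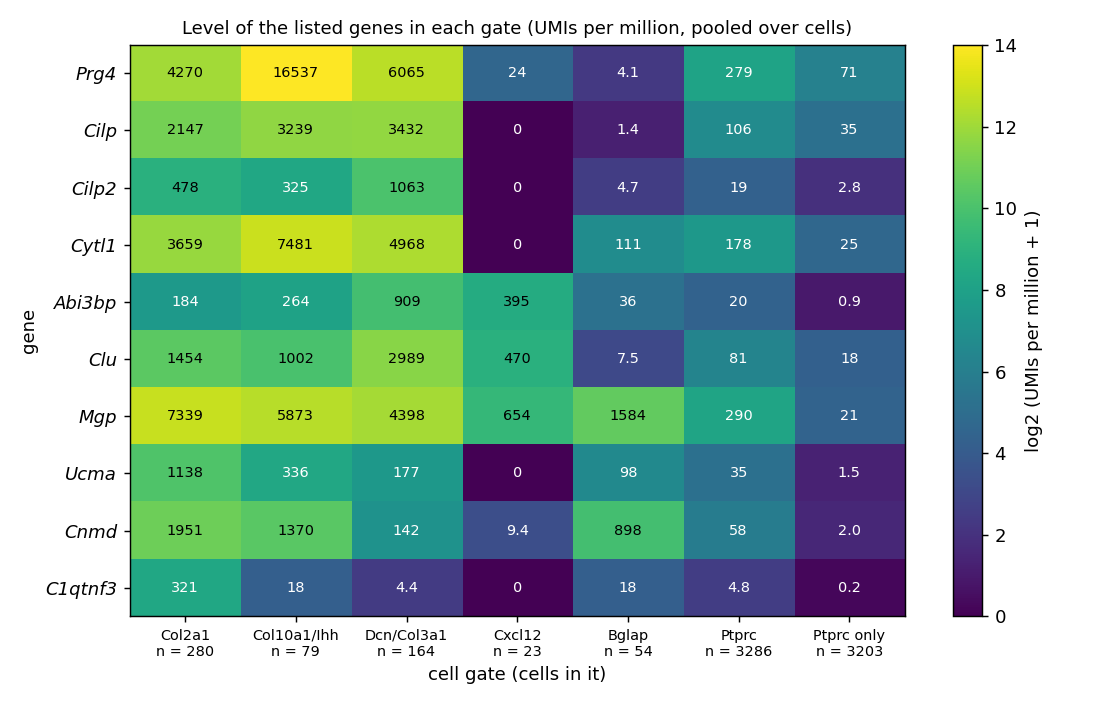
Level of each listed gene (rows) in each gate (columns, with the number of cells), in counts per 1000000 UMIs (CPM) pooled over the cells of the gate. Numbers in the squares are these levels, colour is their log2 after adding 1, and Ptprc only is the subset of the Ptprc gate that passes no other gate. Cnmd, Ucma and C1qtnf3 are highest in the Col2a1 gate, with C1qtnf3 at 18.2 in the Col10a1/Ihh gate and Cnmd at 898 in the Bglap gate, which shares 26 cells with the chondrocyte gates, whereas Prg4, Cilp, Cilp2, Abi3bp and Clu are higher in the Dcn/Col3a1 gate than in the Col2a1 gate.

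Prg4, the lubricin gene, was at 4270 counts per 1000000 UMIs (CPM, pooled over the cells; 4215 to 4325) in the Col2a1 gate, 16537 (16358 to 16717) in the Col10a1/Ihh gate and 6065 (5964 to 6168) in the Dcn/Col3a1 gate. It was found in 35.4% of Col2a1-gate cells, 50.6% of Col10a1/Ihh-gate cells and 82.3% of Dcn/Col3a1-gate cells, against 7.24% of the Ptprc-only background. With every cell thinned to 3000 UMIs the same shares were 29.0%, 43.9%, 74.5% and 2.39%. The median Col2a1-gate cell held none and the highest reached 133453 CPM, so the level of the gate was that of a minority of its cells. Across all kept cells, 220 held at least 5 Prg4 UMIs, of which 108 were chondrocytes, 80 passed the Dcn/Col3a1 gate but no chondrocyte gate, 10 passed the Ptprc gate alone and 22 passed no gate. Cells outside all gates gave 16.1% of the Prg4 UMIs, and 1 cell held 26.1% of these.

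Cilp was at 2147 CPM (2108 to 2186) in the Col2a1 gate, 3239 (3161 to 3320) in the Col10a1/Ihh gate and 3432 (3356 to 3509) in the Dcn/Col3a1 gate. Cilp2 was at 478 (460 to 497), 325 (300 to 351) and 1063 (1021 to 1106). Cytl1 was at 3659 (3609 to 3711), 7481 (7361 to 7603) and 4968 (4876 to 5060), and 84.8% of Col10a1/Ihh-gate cells held it. The Ptprc-only background held Cilp in 2.78%, Cilp2 in 0.781% and Cytl1 in 4.84% of cells. None of the 3 was found in the 23 Cxcl12-gate cells, where the floor of 3 counts used for a count of 0 is 14.1 CPM. Levels of different genes are not compared with each other here, because sequencing from the 3' end gives counts that depend on the transcript as well as its abundance.

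Abi3bp, Clu and Mgp were also held by most cells of the Cxcl12 gate of marrow stroma. Abi3bp was at 184 CPM (173 to 196) in the Col2a1 gate, 909 (870 to 949) in the Dcn/Col3a1 gate and 395 (315 to 489) in the Cxcl12 gate, where 20 of 23 cells held it. Clu was at 1454 (1422 to 1486), 2989 (2918 to 3061) and 470 (383 to 572) in the same gates, with 19 of 23 Cxcl12-gate cells holding it. Mgp was in 14 of the 23, at 654 CPM (550 to 772), of which 1 cell gave 43.9%. The Ptprc-only background held Abi3bp in 0.375% of cells and Clu in 3.50%. Relative to the Dcn/Col3a1 gate, Cilp2, Abi3bp and Clu were at least 2-fold lower in the Col2a1 gate (log2 ratios of -1.15, -2.30 and -1.04), which is 3 of 10 genes beside 7.87% of 9026 genes tested, or 1 of 10 with each cell weighing the same. In the same comparison Ucma (2.69), Cnmd (3.78) and C1qtnf3 (6.18) were at least 2-fold higher, 3 of 10 beside 6.1%. The 43 cells that the 2 gates share enter both sides of these ratios. Over 10 alternatives Mgp, at 0.74, ranged from 0.63 to 1.36 and stayed under 2-fold in 7. Ucma ranged from 2.60 to 5.55 and Cnmd from 3.66 to 10.2. Cytl1 was at -0.44 in this comparison, but at 0.69 with cells that pass another gate left out and 0.08 with each cell weighing the same.

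Mgp was held in 91.8% of Col2a1-gate cells, 73.4% of Col10a1/Ihh-gate cells and 78.7% of Dcn/Col3a1-gate cells, and in 7.93% of the background. Thinned to 3000 UMIs, these shares were 87.1%, 59.9%, 64.3% and 2.64%. Its level was 7339 CPM (7267 to 7411), 5873 (5766 to 5981) and 4398 (4312 to 4485). Outside all gates it was held by 26 of 33 cells with at least 5 UMIs of the mural genes Rgs5 or Acta2, at 2571 CPM. In the Bglap gate Mgp was at 1584 CPM, of which 1 cell gave 59.6%, and in the 28 Bglap-gate cells with Col2a1 under 10 it was at 10.9 (4.01 to 23.8).

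Ucma was at 1138 CPM (1110 to 1167) in the Col2a1 gate and 336 (311 to 363) in the Col10a1/Ihh gate, a log2 ratio of 1.76 (1.64 to 1.88). C1qtnf3 was at 321 (306 to 336) and 18.2 (12.8 to 25.3), a log2 ratio of 4.14 (3.66 to 4.65). These 2 of 10 genes were at least 2-fold higher in the Col2a1 gate, beside 9.89% of 8576 genes tested. Prg4 (-1.95) and Cytl1 (-1.03) were at least 2-fold lower in it, 2 of 10 beside 3.28%. Cytl1 fell short of 2-fold with a floor of 2500 genes a cell (-0.96) and without the cell that holds most, which left Prg4 alone in both. Cnmd differed by less, with 1951 (1914 to 1989) against 1370 (1319 to 1422). Its log2 ratio of 0.51 stayed under 2-fold in 9 of 10 alternatives and reached 1.21 at most. In the background Cnmd was held by 2.19%, Ucma by 1.06% and C1qtnf3 by 0.219% of the Ptprc-only cells. Among the 28 Bglap-gate cells with Col2a1 under 10, Prg4, Cilp, Cnmd and C1qtnf3 had no UMI and Ucma had 1, while the Bglap gate as a whole held Cnmd at 898 CPM.

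The level of Prg4 in the Col10a1/Ihh gate came from cells without Ihh. This split was made after the counts had been seen. Of the 79 cells, 41 held Ihh and 38 did not. In the 41 Ihh-holding cells Prg4 ranged from 0 to 3 UMIs a cell, with 8 UMIs in all, or 5.77 CPM (2.49 to 11.4). In the 38 cells without Ihh it ranged from 0 to 3494 UMIs, with a median of 581.5 and 32637 in all, or 55472 CPM (54871 to 56077). All but 4 of these 38 cells held at least 5 Prg4 UMIs, and none of the Ihh-holding cells did. The 38 cells met the gate through Col10a1 alone, with 5 to 675 UMIs of it and a median of 54, against a median of 477 in the Ihh-holding cells.

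**Figure D2:**
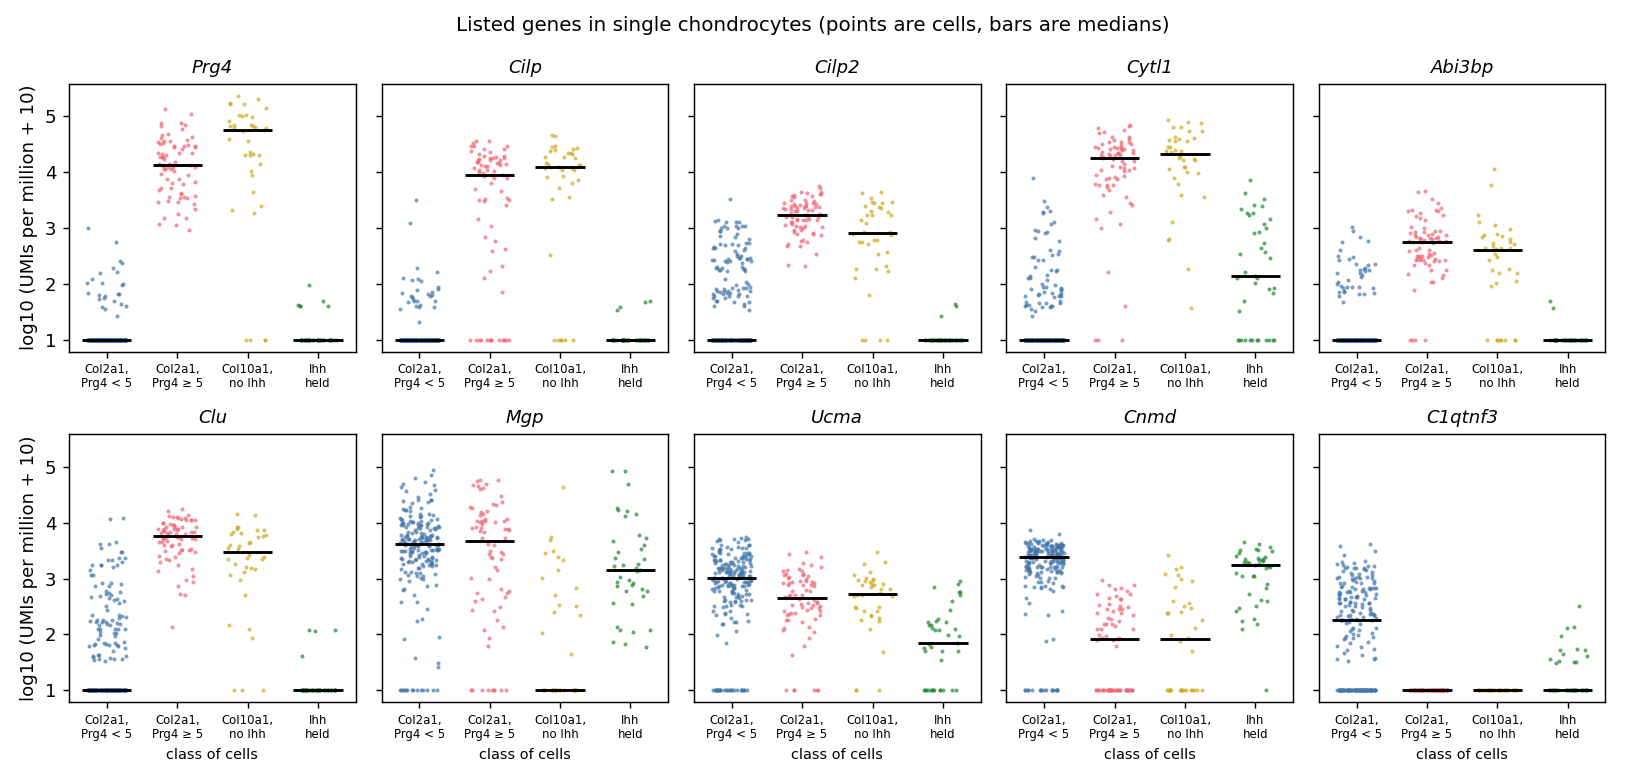
Level of the 10 genes in single chondrocytes, as log10 of CPM plus 10, with 1 point for each cell and bars at the median. The classes are Col2a1-gate cells under 5 Prg4 UMIs (206) and at 5 or more (74), and Col10a1/Ihh-gate cells without (38) and with (41) Ihh. Prg4, Cilp, Cilp2, Abi3bp and Clu sit high in both middle classes and near the floor in Ihh-holding cells, whereas C1qtnf3 is at the floor in both middle classes.

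The other genes divided along the same line. Ihh-holding cells had 4 Cilp UMIs against 6391 in the cells without Ihh, 3 Cilp2 UMIs against 639, 2 Abi3bp UMIs against 520 and 13 Clu UMIs against 1965. As log2 ratios these were -11.88 (-13.75 to -10.52), -8.97 (-11.25 to -7.42), -9.26 (-12.31 to -7.40) and -8.48 (-9.39 to -7.70). Cytl1 differed in degree, with 705 CPM (662 to 751) and 29 of 41 cells holding it beside 23442 (23052 to 23836) and all 38 cells. Ucma was lower in Ihh-holding cells too, at 181 (159 to 205) against 702 (636 to 773). With Prg4, 7 of the 9 members tested were at least 2-fold lower, beside 11.4% of 4097 genes. Cnmd, at 1739 (1670 to 1810) against 500 (444 to 560), and Mgp, at 7419 (7277 to 7564) against 2230 (2111 to 2354), were at least 2-fold higher, 2 of 9 beside 12.0%. For Cnmd the 4 cells with under 5 Prg4 UMIs gave 178 of the 294 UMIs in the cells without Ihh, and the 34 others were at 246 CPM. For Mgp 1 cell gave 65.7% of the UMIs in the cells without Ihh, and with the split at 5 Ihh UMIs its log2 ratio was 0.05 in place of 1.73. C1qtnf3 had 36 UMIs in 14 Ihh-holding cells and 0 in the others, which is at least 5.10-fold higher against a floor of 3 counts.

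The Col10a1/Ihh-gate classes with and without Ihh differed in Col2a1, in depth and in other genes. Col10a1 was held by 38 of the 41 Ihh-holding cells. Col2a1 ranged from 428 to 4451 UMIs with Ihh (median 1805) and from 0 to 2709 without (median 23), and 13 of the 38 cells without Ihh held under 10. The 4 of the 38 with under 5 Prg4 UMIs gave 5454 of the 7401 Col2a1 UMIs of the class, and the 34 others had 4131 CPM of Col2a1, against 56312 in Ihh-holding cells. In these 34 cells Acan, Sox9, Hapln1 and Chad, 4 of 10 chondrocyte markers, were at least 2-fold above the mean of all kept cells, and Col2a1 was not. The 10 markers summed to 22588 CPM in the 34 cells and 94731 in Ihh-holding cells. With the cells under 10 Col2a1 UMIs left out, again 7 of 9 listed genes were at least 2-fold lower in Ihh-holding cells and 2 higher. The median cell held 33765 UMIs with Ihh and 13861 without, and the median mitochondrial share was 4.34% and 2.30%. Of 8 hypertrophic markers Ihh defines the split and Col10a1 the gate, and the 6 others were all at least 2-fold higher in Ihh-holding cells, among them Pth1r, the parathyroid hormone receptor, at 3053 CPM (2962 to 3147) against 275 (235 to 321). Of 9 other surface and articular genes tested, 6 were at least 2-fold lower, among them Creb5 (-4.42), a transcription factor of superficial cartilage, and Hbegf (-2.55), a growth factor, and Fbln7 was higher (1.56). Of 6 blood markers tested, 5 were higher in Ihh-holding cells and Hbb-bs was lower, the 10 blood markers summed to 13043 CPM with Ihh and 16696 without, and Ptprc was found in 8 of the 41 and 6 of the 38 cells. The 8 osteoblast markers summed to 9107 and 3078 CPM with Ifitm5 at 0 without Ihh, and 10 of the 41 and 0 of the 38 cells passed the Bglap gate. The 10 fibroblast or tendon markers summed to 1546 CPM with Ihh and 5621 without, the 6 synovial lining markers to 14.4 and 178, and Grem1, 1 of 8 reticular stroma markers, was at 0 and 875, while Lepr and Adipoq were at 0 in both classes and Kitl, Vcam1 and Lpl were at 0 without Ihh. The part of depth and of other cells' RNA in these ratios was not tested. WPRE, the viral element at the end of the tdTomato transcript, was above 14 UMIs in 20 of 41 Ihh-holding cells (48.8%, 32.9% to 64.9%) and in 25 of 38 cells without Ihh (65.8%, 48.6% to 80.4%), and 24 of these 25 held at least 5 Prg4 UMIs.

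Within the Col2a1 gate the Prg4 count drew a similar line. Of the 280 cells, 74 held at least 5 Prg4 UMIs (the lowest 15), 25 held 1 to 4 and 181 held none, so no cell lay between 4 and 15. Cells at 5 or more had 20532 CPM of Prg4 and a median depth of 12672 UMIs, the other 206 cells 8.81 and 17654. Among the other 9 genes, 5 were at least 2-fold higher in the 74 cells, beside 8.82% of 7753 genes tested. These were Cilp at 10277 CPM against 16.7 (log2 ratio 9.27, 8.93 to 9.62), Cytl1 at 17258 against 96.2 (7.49, 7.35 to 7.63), Abi3bp at 797 against 23.7 (5.08, 4.78 to 5.39), Clu at 6183 against 214 (4.85, 4.75 to 4.95) and Cilp2 at 1877 against 112 (4.07, 3.92 to 4.21). Cilp2 and Clu were found in all 74 cells.

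Of the 9 genes, 3 were at least 2-fold lower in the Prg4 cells, beside 13.3% of genes. Ucma was at 572 (528 to 617) against 1286 (1253 to 1320), and 68 of the 74 cells still held it. Cnmd was at 149 (127 to 173) against 2423 (2377 to 2470). C1qtnf3 had 0 UMIs in the 74 cells and 1745 in 134 of the 206, so it was at least 152-fold lower. With the split at 1 Prg4 UMI in place of 5, 2 of 9 were at least 2-fold lower, with Ucma at -0.88, Cnmd at -1.97 and C1qtnf3 at -2.59. Mgp, the remaining gene, was at 11549 against 6236 (log2 ratio 0.89), and 1 cell gave 24.6% of it in the Prg4 cells.

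Genes of the same tissues, listed for context, moved with these. Of 16 other surface and articular genes 11 were tested, of which 8 were at least 2-fold higher in the Prg4 cells and 1, Fbln7, was lower (-1.07). The median log2 ratio of the 11 was 1.63, and that of all genes tested was -0.05. Among them, Creb5 was at 286 CPM against 26.2, Tnfaip6, which binds hyaluronan, at 173 against 12.3, and Thbs4, a thrombospondin of tendon and cartilage matrix, at 259 against 28.3. Of 19 growth plate and general cartilage matrix genes tested, 13 were lower and 2, Chad and Pthlh, higher, with a median of -1.55. Matn3 (-9.62) and Col9a1 (-4.69), both cartilage matrix genes, were lower, whereas Sox9, the chondrocyte master regulator, was at 1676 against 1179. Of 6 hypertrophic markers tested, Pth1r (32.7 against 408), Panx3 and Mmp13 were lower and Spp1 higher (2624 against 592), and the 8 of the list summed to 2941 against 1477 CPM. Col2a1 itself was at 7448 against 36047, and the 10 chondrocyte markers summed to 20129 against 61527 CPM. In the 74 Prg4 cells Acan, Sox9, Hapln1 and Chad, 4 of these 10 markers, were at least 2-fold above the mean of all kept cells, and Col2a1 was not.

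Markers of other cells moved with the Prg4 count as well. Of 8 osteoblast markers 7 were lower in the Prg4 cells and Ibsp was higher, with Ifitm5 at 0 and a summed level of 6426 against 20591 CPM, and 0 of the 74 and 16 of the 206 passed the Bglap gate. Of 5 fibroblast or tendon markers tested Dcn and Col3a1 were higher, the 10 of the list summed to 13300 against 2916 CPM with Tnmd and Thy1 at 0 in the Prg4 cells, and 29 of the 74 and 14 of the 206 passed the Dcn/Col3a1 gate. Of 10 blood markers 4 were higher, S100a8, S100a9, Lyz2 and Hbb-bs, and Cd74 was lower, at a summed level of 26238 against 10926 CPM. Of 4 synovial lining markers tested, Htra4, Has1 and Vcam1 were higher and Thbd was lower, and the 6 of the list summed to 349 against 39.9 CPM with Clic5 and Tspan15 at 0 in the Prg4 cells. The 2 reticular stroma markers tested, Vcam1 and Grem1, were higher, and the 8 of the list summed to 203 against 28.3 CPM with Adipoq, Kitl and Lpl at 0 in the Prg4 cells. With cells that pass another gate left out, 5 of the listed genes were at least 2-fold higher and 3 lower.

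Ucma was lower in the Prg4 cells but present in most of them. Of 359 chondrocytes 311 held Ucma. Prg4 was found in 38.6% of them (33.1% to 44.2%) and in 39.6% of the 48 without Ucma (25.8% to 54.7%), or 31.8% and 33.4% at 3000 UMIs a cell. These pooled shares hid opposite directions in the gates. At 3000 UMIs Prg4 was in 25.5% of Col2a1-gate cells with Ucma (19.7% to 31.7%) and 40.3% of those without (28.5% to 53.0%). In the Col10a1/Ihh gate it was in 67.0% with Ucma (49.8% to 80.9%) and 21.9% without (10.8% to 38.5%). At 5 UMIs or more of each, 66 chondrocytes held both genes, which is 27.4% of the 241 Ucma cells and 61.1% of the 108 Prg4 cells. They were 43 Col2a1-gate cells and 23 Col10a1-gate cells without Ihh, and no Ihh-holding cell was among them.

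All 9 other genes of the list occurred in chondrocytes that held Ucma. Besides Prg4, these cells held Mgp in 89.7%, Cnmd in 83.6%, Cilp2 in 60.5%, Clu in 58.5%, Cytl1 in 56.9%, C1qtnf3 in 47.3%, Abi3bp in 39.9% and Cilp in 37.3%. In the 48 cells without Ucma the shares were 75.0%, 64.6%, 31.2%, 45.8%, 52.1%, 2.08%, 35.4% and 20.8%. Nearly all C1qtnf3 lay in Ucma cells, 147 of the 148 chondrocytes that held it. At equal depth C1qtnf3 was in 34.6% of cells with Ucma and 4.98% without, Cnmd in 76.9% and 58.1% and Mgp in 86.5% and 68.6%. With both gates pooled, the intervals of the other 6 genes overlapped. In the Col10a1/Ihh gate alone those of Prg4, Cilp, Cilp2, Abi3bp and Clu did not, and the shares were higher with Ucma. Cilp was there in 63.0% with Ucma and 19.0% without, Cilp2 in 58.5% and 15.5% and Abi3bp in 44.6% and 12.3%. Mgp, Cnmd and C1qtnf3 had overlapping intervals in that gate. In the Col2a1 gate Clu went the other way without overlap, at 38.8% with Ucma and 59.6% without.

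**Figure D3:**
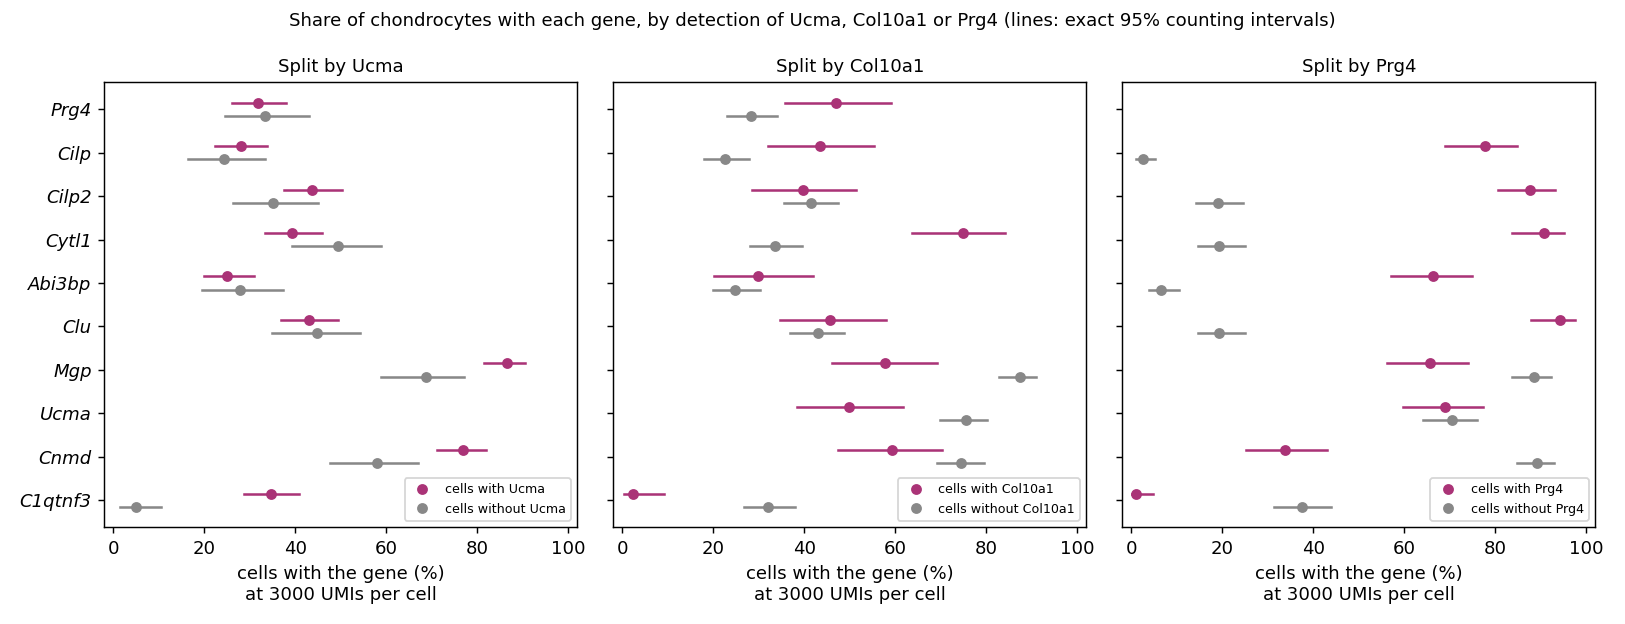
Share of the 359 chondrocytes that hold each listed gene, among cells with (purple) and without (grey) Ucma, Col10a1 or Prg4, after thinning every cell to 3000 UMIs. Points are shares in percent and lines are exact 95% intervals for counting error. With both chondrocyte gates pooled, Prg4 is in 31.8% of cells with Ucma and 33.4% of those without, although the gates differ in direction. C1qtnf3 is rare with Col10a1 (2.24%) or Prg4 (1.08%), and Cytl1 is commoner with Col10a1 (74.8% against 33.6%).

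Col10a1 was held by 88 chondrocytes. All 10 genes occurred in them: Cytl1 in 83.0%, Ucma in 81.8%, Cnmd in 78.4%, Mgp in 72.7%, Cilp2 and Clu in 52.3% each, Prg4 in 51.1%, Cilp in 46.6%, Abi3bp in 43.2% and C1qtnf3 in 15.9%. Among the 271 cells without Col10a1, Prg4 was in 34.7%, Cytl1 in 47.6%, Mgp in 92.6%, Ucma in 88.2% and C1qtnf3 in 49.4%. At equal depth Ucma was in 49.8% of cells with Col10a1 and 75.5% of those without, Mgp in 57.8% and 87.4%, and C1qtnf3 in 2.24% and 32.0%, whereas Prg4 was in 47.1% and 28.3%, Cilp in 43.4% and 22.5% and Cytl1 in 74.8% and 33.6%. At 5 UMIs or more of each, 34 chondrocytes held Prg4 with Col10a1, 31.5% of the 108 with Prg4, all of them cells without Ihh and 12 of them with under 10 Col2a1 UMIs, and 0 of 359 held Prg4 with Ihh. Prg4 and C1qtnf3 likewise shared 0 of 359, although 108 cells held the one and 96 the other. At this limit of 5 UMIs, 0 of 108 Prg4 cells allows a share of up to 3.36% (exact interval). At 1 UMI or more of each, 13 of 139 Prg4 cells held C1qtnf3 and 8 held Ihh.

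**Figure D4:**
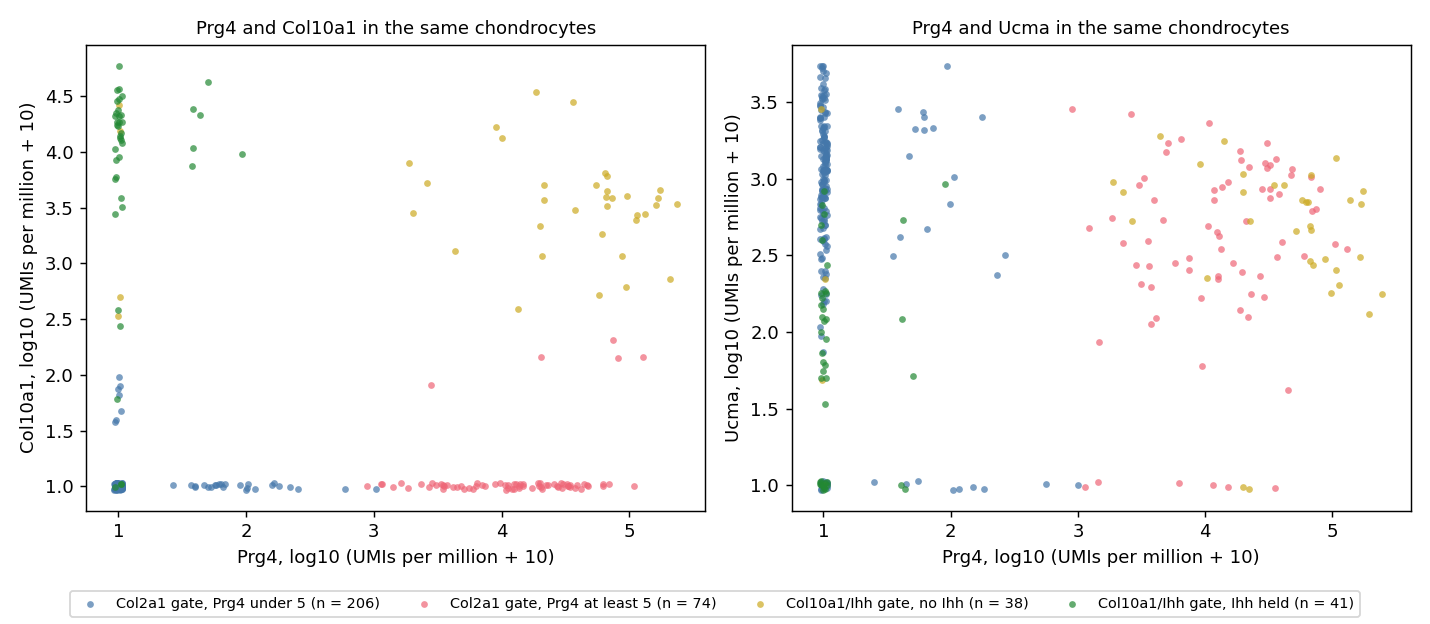
Prg4 against Col10a1 (left) and against Ucma (right) in the 359 chondrocytes, each axis as log10 of CPM plus 10, coloured by class. A small random shift separates cells at 0. Of the 38 Col10a1 cells without Ihh, 34 lie high on the Prg4 axis of the left panel and 4 on its floor, while Ihh-holding cells stay at or near the Prg4 floor, and in the right panel Prg4 cells of both gates spread over the Ucma axis.

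Counted cell by cell and without Prg4, which splits the Col2a1 gate, the 5 genes Cilp, Cilp2, Cytl1, Abi3bp and Clu were all present in 56 of the 74 Prg4 cells of the Col2a1 gate and in 27 of the 38 Col10a1 cells without Ihh. All 5 were present in 2 of the 206 other Col2a1-gate cells, in 0 of the 41 Ihh-holding cells and in 20 of the 118 Dcn/Col3a1-gate cells with Col2a1 under 10. Ucma and Cnmd were both present in 176 of the 206, 28 of the 41, 36 of the 74, 20 of the 38 and 1 of the 118 cells, and C1qtnf3 in 134, 14, 0, 0 and 8 of them. The grouping of the 5 genes was chosen after their counts were seen.

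Over the 359 chondrocytes, with counts scaled to 10000 UMIs a cell, the gene closest to Prg4 among 6390 was Cilp (Spearman rho 0.77), then Gas1 (0.77) and Cytl1 (0.74). Cilp2 was closest to Clu (0.79) and Abi3bp to Clu (0.77). Cnmd was closest to Col9a3 (0.85), Col9a1 and Matn3 (both 0.85), and C1qtnf3 to Matn3 (0.78), Cnmd (0.75) and Car12 (0.73), where Col9a1, Col9a3 and Matn3 are cartilage matrix genes. Ucma was closest to Prelp (0.55), a matrix proteoglycan, and C1qtnf3 (0.54), and its rho with Prg4 was -0.15. Mgp had no close partner, with Fmod first at 0.39. These coefficients are descriptions over cells of 1 pool that share depth, with which Clu went at -0.53 and Cnmd at 0.33. The list is named for articular and surface cartilage, but Cnmd and C1qtnf3 had negative rho with Prg4 (-0.67 and -0.52), and no tissue of origin was measured for these cells. The paper states that tibial trabecular bone with part of the growth plate was taken at this age.

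Splitting the Col2a1 gate by Ucma gave 203 cells with at least 5 UMIs and 77 with fewer, of which 45 held 1 to 4. C1qtnf3 was at 409 CPM against 9.13 (log2 ratio 5.49, 4.64 to 6.49) and Cnmd at 2370 against 477 (2.31, 2.19 to 2.44), 2 of 9 genes at least 2-fold higher beside 10.8% of 7753. Abi3bp was at 138 against 347 (-1.33, -1.51 to -1.14), 1 of 9 lower beside 4.62%. Prg4 was at 3770 against 6030 (-0.68), but with the split at 1 Ucma UMI its log2 ratio was 2.10. The cells with little Ucma were of mixed kinds, since 13 of the 77 and 3 of the 203 passed the Bglap gate and 7 of 8 osteoblast markers were lower in the Ucma cells, at a summed level of 1513 against 74412 CPM with Ifitm5 and Dmp1 at 0. The 10 blood markers summed to 10494 against 26806 CPM, with 2 higher and 2 lower, and the 10 chondrocyte markers to 61432 against 23033, with 7 higher. The part of these cells in the ratios was not tested. With cells that pass another gate left out, 6 of the 9 genes were at least 2-fold lower in the Ucma cells, and with the split at 1 UMI 0 were and 8 were higher.

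In the Col2a1 gate 10 of 280 cells had over 14 WPRE UMIs (3.57%, 1.73% to 6.47%), and 110 had 1 or more. Prg4 was at 22145 CPM in them against 3652 in the other 270, a log2 ratio of 2.60 (2.55 to 2.65), but 4 of the 10 cells held it, with 1 cell giving 47.9%. Cilp (1.24), Cytl1 (1.67) and Clu (1.52) were also at least 2-fold higher, 4 of 10 beside 10.5% of 7754 genes. With each cell weighing the same 1 of 10 was, and with WPRE over 4 UMIs 0 of 10 were, Prg4 then at 0.91. Without the cell that holds most, Prg4 was at 1.88 and Cilp at 0.85. Mgp (-4.07), Ucma (-1.12), Cnmd (-4.93) and C1qtnf3 (0 UMIs, at least 20.1-fold lower) were lower, 4 of 10 beside 21.9%. Of these 10 cells 4 also passed the Bglap gate, and 7 of 8 osteoblast markers were higher in them, at a summed level of 77988 against 15565 CPM. Of 10 chondrocyte markers 8 were lower in them, at a summed level of 15326 against 54232 CPM, as were 13 of 19 growth plate and general cartilage matrix genes, and 5 of the 10 cells held under 5 UMIs of the listed genes in all. Their part in these ratios was not tested. The Cre that turns on the reporter can also delete the floxed Mmp14 copy, so lineage and loss of that copy cannot be told apart here.

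The Dcn/Col3a1 gate also held these genes in cells with little Col2a1. Of its 118 cells with Col2a1 under 10, 29 held Col2a1 (at most 8 UMIs) and 1 passed the Col10a1/Ihh gate. The 118 cells held Prg4 in 98 cells at 5149 CPM (5025 to 5276), Abi3bp in 92 at 1129 (1071 to 1189), Clu in 79 at 2494 (2408 to 2583), Cilp in 77 at 2600 (2512 to 2690) and Cilp2 in 75 at 897 (846 to 951). Cytl1 was in 41 of them, at 1960 (1884 to 2039). Ucma was in 12, Cnmd in 3 and C1qtnf3 in 8 of the 118, at 27.6, 4.73 and 7.09 CPM. Of 6 synovial lining markers 5 were at least 2-fold above the mean of all kept cells in the whole Dcn/Col3a1 gate, as were 7 of 8 fibroblast or tendon markers other than Dcn and Col3a1, at a summed level of 457 and 2373 CPM. In the same gate 7 of 8 osteoblast markers were above this limit too, at a summed level of 38257 CPM, and 12 of its 164 cells passed the Bglap gate. These cells cannot be assigned to one tissue from the gate alone.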

How the data were processed

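Single-cell libraries of 8 labelled samples were deposited as 1 pool. The deposited values are raw counts of UMIs per gene and barcode, which the authors made with Cell Ranger 3.1.0 from an alignment to mm10 and to exogenous sequences that include WPRE, and per the labels Seurat 3 was also used. Barcodes with at least 1600 genes were kept, with no mitochondrial limit, and assigned to gates by raw counts. UMIs were summed over cells and divided by their total (per 1000000), with exact Poisson 95% intervals. Ratios carry exact conditional intervals and shares Clopper-Pearson intervals, all for counting error only. Genes with at least 50 UMIs over both groups were tested for a 2-fold ratio, and a group at 0 was set to 3 counts. Thinned shares are the expected shares at 3000 UMIs a cell. Genes named beside the list came from fixed context and marker lists, and as the 3 with the highest Spearman rho. Kept cells held 3224 to 103543 UMIs. Scrublet in scanpy 1.11.5 called 3.54% of all barcodes doublets, and called cells were not removed. Among the 4472 kept cells 332 were called, 305 of them in the Ptprc-only background and 4 among the chondrocytes. Coordinates are from GENCODE for mm10. Ratios, intervals and thinning were tested on simulated counts. The members, lists and gates were chosen with earlier results of these data known. Python 3.11.15 and scipy 1.17.1 were used.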

Additional observations from a re-analysis of the deposited data

How the results depend on the processing

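Across 67 log2 ratios of listed genes and 20 alternatives, 710 of 725 recomputed values kept their sign, and the 15 others fell on 12 ratios. Of the 725 values, 676 stayed on the same side of the 2-fold limit used for the calls. In the Prg4 split of the Col2a1 gate 5 genes were higher under each of its 12 alternatives, and 3 were lower under all of these except Prg4 of at least 1, with 2. With each cell weighing the same, 1 gene lay 2-fold below the Dcn/Col3a1 gate in the Col2a1 gate. Fewer genes of the Col2a1 gate lay 2-fold below the Col10a1/Ihh gate with a floor of 2500 genes (1) or without the cell that holds most (1), and more with cells of other gates left out (4). The Ucma split depended most on its limit: 8 genes were higher at Ucma of at least 1, while the number lower was 6 without cells of other gates, 2 with each cell weighing the same, 2 at Col2a1 of at least 20, 0 at Ucma of at least 1, 6 at Ucma of at least 10 and 3 with Ucma per 3000 UMIs. At Ucma of at least 1 the ratios of 6 genes turned positive, Abi3bp to 0.62, Cilp2 to 1.13, Cytl1 to 1.15, Clu to 1.503, Prg4 to 2.10 and Cilp to 3.45. Genes higher in WPRE cells numbered 1 with each cell weighing the same and 0 at WPRE over 4. With Ihh of at least 5, an alternative added after seeing the data like all splits by Ihh, 1 gene was higher. Genes in at least 50% of Ucma-holding chondrocytes fell from 5 to 2 when thinned and to 2 at 3 UMIs or more, and those in at least 50% of Col10a1-holding ones from 7 to 3 and to 4. The cause was not tested.

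No paired analysis was possible because the 8 samples form 1 group whose barcodes carry no sample mark, and for the same reason leaving out each sample was not run. The intervals are too narrow for differences between mice, and the smallest gate, of 23 cells, limits what its counts of 0 show.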
